A study of Mus musculus with 4 samples.

Results

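Of the 6119 tissue spots deposited for popliteal lymph nodes (PLNs), 72 were sinus spots rich in hemoglobin transcripts. A spot is a small captured region that can hold several cells, and each captured molecule is counted once as a unique molecular identifier (UMI). Among the spots of an area with at least 1000 UMIs, the 25% with the highest share of UMIs on the sinus genes Prox1, Flt4, Stab1, Stab2, Mrc1, Siglec1, C1qa, C1qb and C1qc formed the sinus set of 513 spots. A spot of this set was a member where at least 10 of every 10000 UMIs fell on Hba-a1, Hba-a2, Hbb-bs and Hbb-bt together, and the other 441 spots were the comparison. The members were thus chosen by their hemoglobin and sinus gene values, which are given below as a description.

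All mice were male and C57BL/6, and Evans blue dye had been injected into the skin of the hindpaw to find the PLNs. The WT area held 10 PLNs of 5 wild-type mice aged 5.5 months. The Early area held 6 PLNs of 3 TNF-Tg mice aged 5.5 months with Early arthritis, and the Advanced 1 and Advanced 2 areas each held 6 PLNs of 3 TNF-Tg mice aged 8.5 to 9 months with Advanced arthritis. TNF-Tg mice carry a TNF transgene and develop inflammatory-erosive arthritis. Each area was a single frozen section across pooled PLNs on 1 slide, so WT and Early had no replicate area, and p-values measure the spread between areas. The areas held from 1808678 to 5180493 UMIs. As the array uses the same barcodes in every area, from 464 to 1050 barcodes were shared by pairs of areas and do not mark shared spots.

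Lymph enters a node through the subcapsular sinus and leaves through medullary sinuses, channels lined by lymphatic endothelium and crossed by macrophages that take up particles and dying cells. Red cells can reach these sinuses with the lymph of an inflamed or injured limb. Macrophages that engulf them break down heme through heme oxygenase (Hmox1), store the iron in ferritin (Fth1 and Ftl1) and release it through ferroportin (Slc40a1). Red cells carry a tetramer of α-globin and β-globin, and young red cells keep much of their globin mRNA after the nucleus is lost. α-globin has also been described in the endothelium of small arteries, so hemoglobin counts alone do not define red cells.

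Each globin chain is encoded by a pair of nearly identical genes, shown here because their close likeness limits what the single gene counts can say. Hba-a1 (chromosome 11, 32283511 to 32284465 of GRCm38) and Hba-a2 (chromosome 11, 32296489 to 32297298) have coding sequences of 429 bases in the GENCODE M21 transcripts that differ at 1 base, C381T, counted from the A of the start codon with the base of Hba-a1 first. Hbb-bs (chromosome 7, 103826534 to 103828096) and Hbb-bt (chromosome 7, 103812524 to 103813996) have coding sequences of 444 bases that differ at 1 base, C417T, with the base of Hbb-bs first. The 29 coding bases around each difference lie in exon 3 of each gene, at chr11:32284329-32284357 and chr11:32297146-32297174 on the plus strand, and at chr7:103826678-103826706 and chr7:103812669-103812697 on the minus strand, in the order printed. The capital marks the base that differs within a pair.
Hba-a1: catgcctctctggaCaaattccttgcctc
Hba-a2: catgcctctctggaTaaattccttgcctc
Hbb-bs: gtggctggagtggcCgctgccctggctca
Hbb-bt: gtggctggagtggcTgctgccctggctca
The genes of a pair also differ in their annotated transcript lengths, 699 against 554 bases for Hba-a1 and Hba-a2 and 628 against 703 for Hbb-bs and Hbb-bt. Reads can be shared within a pair, so the split between its 2 genes is uncertain, and sums over a pair are the firmer values.

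Most members lay on Advanced 1. There were 7 members among 68 sinus-set spots on WT, 7 among 150 on Early, 51 among 144 on Advanced 1 and 7 among 151 on Advanced 2. As shares of the sinus set these are 10.3%, 4.67%, 35.4% and 4.64%, with exact 95% Clopper-Pearson bounds of 4.24 and 20.1, 1.90 and 9.38, 27.6 and 43.8, and 1.88 and 9.32, which cover counting error only. The share on Advanced 1 stood above the bounds of the other areas, including the other area of Advanced arthritis. Outside the sinus set, the spots past the same hemoglobin threshold were 11 of 205 on WT, 20 of 451 on Early, 105 of 435 on Advanced 1 and 25 of 453 on Advanced 2. The sinus set held the larger share on 3 of 4 areas, with a mean difference of 3.89 percentage points (SD 5.53, n = 4 areas, exact two-sided sign-flip permutation p = 0.375, where 4 areas cannot reach 0.05 and the smallest p they allow is 1 in 8). The hemoglobin-rich spots were therefore not shown to be more frequent in the sinus set than elsewhere.

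The member spots differed widely in hemoglobin. On WT the lowest member had 11.5 hemoglobin UMIs per 10000, the median 14.4 and the highest 48.3. On Early these were 12.6, 76.2 and 1145, on Advanced 1 10.96, 22.7 and 136, and on Advanced 2 11.2, 18.8 and 60.2. A single Early spot with 2488 hemoglobin UMIs of 21728 held 73.0% of the hemoglobin UMIs of the Early members. Summed over members, hemoglobin took 24.6 of every 10000 UMIs on WT, 341 on Early (118 without that spot), 28.6 on Advanced 1 and 24.1 on Advanced 2. In the rest of the sinus set the sums were 1.36, 1.11, 3.18 and 1.32 per 10000, and 67.2%, 51.0%, 36.6% and 73.6% of those spots held no hemoglobin UMI. The members thus took between 2.76% (Advanced 2) and 44.3% (Early) of all hemoglobin UMIs of an area.

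**Figure D1:**
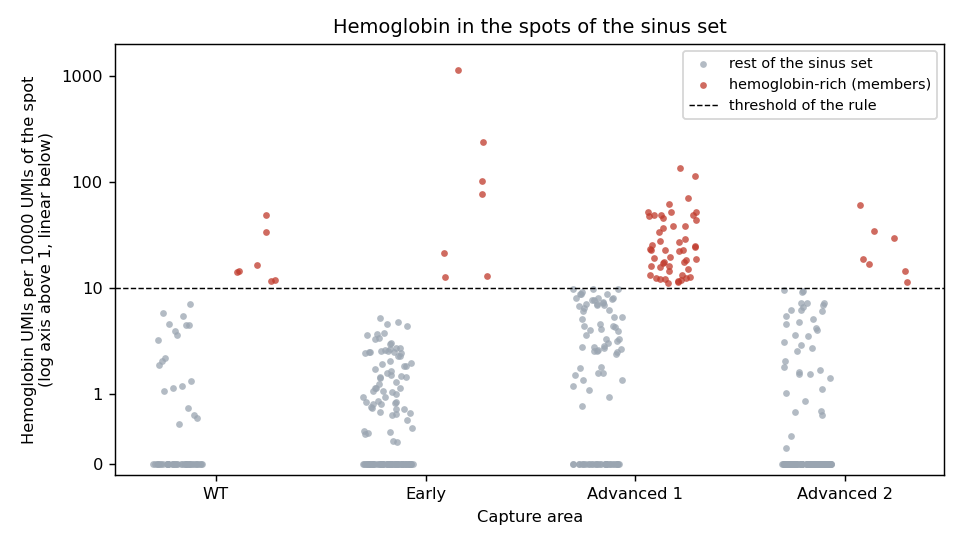
Hemoglobin UMIs per 10000 UMIs of a spot (vertical axis, logarithmic above 1 and linear below) for each spot of the sinus set on the 4 capture areas, with members in red and the rest in grey. The members on WT, Advanced 1 and Advanced 2 lay at or below 136 per 10000, and a single Early member reached 1145.

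The threshold fell within a continuum on the Advanced areas. The lowest members and the highest other spots were at 11.5 and 6.98 per 10000 on WT, 12.6 and 5.18 on Early, 10.96 and 9.64 on Advanced 1 and 11.2 and 9.49 on Advanced 2. Thin counts lay behind some members, since 2 on WT, 1 on Early, 8 on Advanced 1 and 2 on Advanced 2 held fewer than 5 hemoglobin UMIs. Members were also deeper than the other sinus-set spots, with medians of 5476 against 4890 UMIs on WT, 13123 against 8731 on Early, 4593 against 2966 on Advanced 1 and 4794 against 2939 on Advanced 2. Depth was thus higher in the members on 4 of 4 areas, and its part in the gene differences below was examined only by thinning each spot to 1000 UMIs and by other depth minimums.

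Most members were single spots on WT and Advanced 2, most touched another member on Advanced 1, and Early had a group of 4 and 3 single members. On Advanced 1, 43 of 51 members touched another member, the largest group of touching members held 12 spots, and the spots of at least 1000 UMIs that touched a member without being one had 34.0 hemoglobin UMIs per 10000, against 28.6 in the members themselves. Such spots had 3.54 per 10000 on WT, 2.10 on Early and 17.7 on Advanced 2. On Early, the 4 highest members formed a single group at a tissue edge. On WT and Advanced 2, 5 of 7 members each touched no other member. A tissue edge, where a spot has fewer than 6 tissue neighbours, ran through 7 of 7 members on WT, 4 of 7 on Early, 4 of 51 on Advanced 1 and 6 of 7 on Advanced 2. In the rest of the sinus set the edge shares were 75.4%, 49.0%, 20.4% and 26.4%, so that members were more often at an edge on 3 areas and less often on Advanced 1. The mean difference of 19.9 percentage points (SD 30.4, n = 4 areas) was smaller than its spread (exact two-sided sign-flip permutation p = 0.375).

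**Figure D2:**
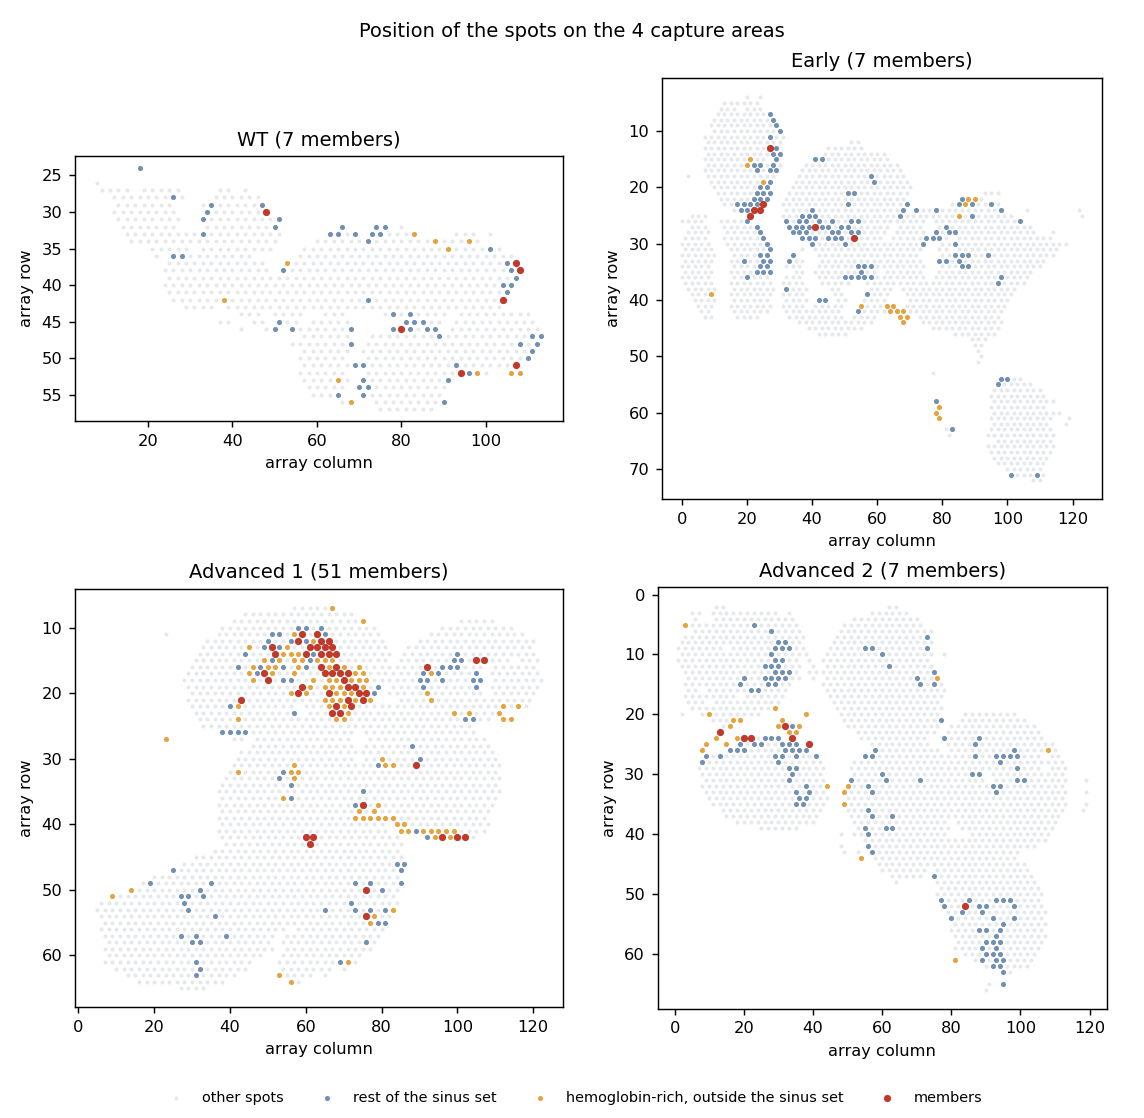
Positions of the spots on the array (array column and array row) for each capture area, with members in red, the rest of the sinus set in blue, hemoglobin-rich spots outside the set in orange and all other tissue spots in light grey. Members on Advanced 1 form large patches within the tissue, where 47 of 51 have tissue on all 6 sides, while 6 of 7 members on Advanced 2 lie at a tissue edge.

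The make-up of the hemoglobin signal differed between areas. Members held 98 α-globin and 186 β-globin UMIs on WT, 1446 and 1964 on Early, 452 and 492 on Advanced 1 and 67 and 29 on Advanced 2. The share of α-globin in hemoglobin UMIs was thus lowest on WT, at 34.5% with exact 95% bounds of 29.0 and 40.4. It was 42.4% on Early (bounds 40.7 and 44.1), 47.9% on Advanced 1 (bounds 44.7 and 51.1) and 69.8% on Advanced 2 (bounds 59.6 and 78.7). On Advanced 2 the excess was on Hba-a2, with 62 UMIs against 5 of Hba-a1, 24 of Hbb-bs and 5 of Hbb-bt, and 3 of its 7 members held at most 1 β-globin UMI. The hemoglobin-rich spots outside the sinus set on the same area had 46.1% α-globin (bounds 44.3 and 47.8), with 679 UMIs of Hba-a1 among 1406 of α-globin. More Hba-a2 than Hba-a1 was not particular to the Advanced 2 members, in which Hba-a1 made up 7.46% of α-globin UMIs. Its share was 20.8% in the rest of the sinus set on Advanced 2 and 28.3% in the Advanced 1 members. In the other spots outside the set on Advanced 2 it was 20.4%. In the hemoglobin-rich spots outside the sinus set the α-globin share lay between 44.9% and 47.6% on all 4 areas. In the other spots outside the set it ran from 45.7% on Advanced 1 to 55.2% on WT. In the rest of the sinus set it ran from 41.2% on Advanced 1 to 52.7% on Advanced 2. These intervals treat UMIs as independent, and as few spots carry most of the counts, they cover counting error only. As the members were chosen on these genes, the shares are a description.

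**Figure D3:**
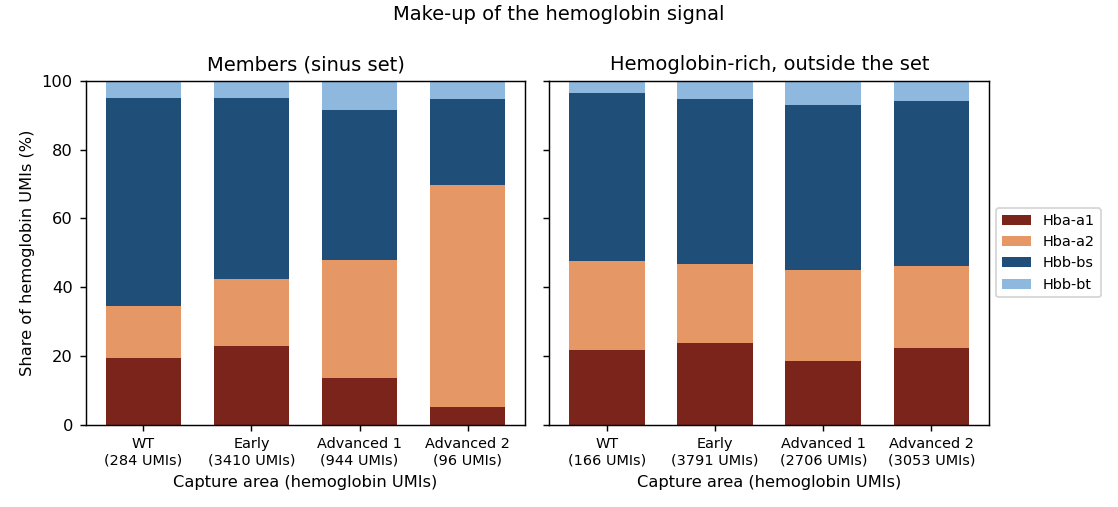
Share of hemoglobin UMIs (percent) on Hba-a1, Hba-a2, Hbb-bs and Hbb-bt for the members and for the hemoglobin-rich spots outside the sinus set on each capture area, with the number of hemoglobin UMIs under each bar. Hba-a2 dominates in the Advanced 2 members, which hold 96 hemoglobin UMIs, while α-globin takes between 44.9% and 47.6% in the hemoglobin-rich spots outside the sinus set on the 4 areas.

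Alas2 and Slc4a1, red cell transcripts other than hemoglobin, were found in the members of 2 areas. Alas2, the first enzyme of heme synthesis in red cell precursors, had 18 UMIs in the Early members and 10 in the Advanced 1 members, against 0 in the rest of the sinus set of both areas. It had 0 UMIs in the members of WT and Advanced 2, and 3 UMIs in the rest of the sinus set of Advanced 2. Slc4a1, the band 3 anion exchanger of the red cell membrane, had 7 UMIs in the Advanced 1 members against 2 in the rest, and 0 in the members of the other areas. Both genes together thus had 18 UMIs beside 3410 of hemoglobin on Early and 17 beside 944 on Advanced 1, against 0 beside 284 on WT and 0 beside 96 on Advanced 2. A count of 0 allows up to 0.260 UMIs per 10000 on WT and 0.754 on Advanced 2 (3 counts per sum), and neither gene was detected there. These limits lie below the 1.8 per 10000 of the Early members, and that of WT also below the 0.516 of the Advanced 1 members. The Early members, however, held 341 hemoglobin UMIs per 10000, against 24.6 on WT and 24.1 on Advanced 2. Both genes had only 18 UMIs beside 3410 of hemoglobin on Early. Counts of 0 beside 284 or 96 of hemoglobin therefore cannot decide whether red cells were present. On WT and Advanced 2 neither gene bears out the label of red cell spots, which rests there on hemoglobin. Neither had the 100 UMIs over the 8 sums of members and rest that the test required.

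A sinus gene that the rule did not use was lower in the members than in the rest of the sinus set on 3 of 4 areas. Marco, a scavenger receptor of medullary sinus macrophages and lymphatic endothelium, took 51.5 of every 10000 UMIs in the WT members, 33.7 in Early, 44.9 in Advanced 1 and 21.6 in Advanced 2. In the rest of the sinus set it took 63.0, 49.9, 30.3 and 53.6, with a fitted log2 difference of -0.23 (SE 0.21) that did not pass the test described below. In hemoglobin-rich spots outside the set, which the rule placed there for a low sinus score, it took 14.4, 7.53, 16.7 and 15.1. Lyve1, a hyaluronan receptor of lymphatic endothelium, had 1 UMI in the Advanced 2 members (0.251 per 10000), against 6.60 per 10000 on WT, 3.901 on Early and 1.40 on Advanced 1. Against the rest of the sinus set, Lyve1 was higher in members on 2 areas and lower on 2, with a fitted log2 difference of -0.26 (SE 0.28). Lyve1 was chosen after its values were seen. The sinus genes of the rule summed to 43.6, 31.8, 24.8 and 45.8 per 10000 in the members of WT, Early, Advanced 1 and Advanced 2, against 52.0, 33.4, 27.02 and 39.1 in the rest of the set.

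Members were compared with the rest of the sinus set to ask which genes accompany hemoglobin within the sinuses. UMIs were summed per area and class, the area was kept as a block, and the 13 genes of the rule were left out. Only 3 of 6812 genes passed an adjusted p of 0.05 (0.044% of genes tested), each of them mitochondrially encoded and higher in members. At an unadjusted p under 0.05 there were 433 genes (6.36%), with 262 higher (3.85%) and 171 lower (2.51%). The median log2 difference of all genes tested was -0.02. No gene was called lower (0.0%). All calls are from edgeR (quasi-likelihood, Benjamini-Hochberg over all genes), and DESeq2 called 0 genes, with 205 at an unadjusted p under 0.05.

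Transcripts of the mitochondrial genome, which encodes subunits of the respiratory chain, were the genes that rose. mt-Nd4 (mitochondrial chromosome, 10167 to 11544), a subunit of complex I, took 7.38 of every 10000 UMIs in members against 5.54 in the rest on WT, 20.3 against 7.44 on Early, 9.38 against 7.13 on Advanced 1 and 19.6 against 4.98 on Advanced 2. In sums over spots mt-Nd4 was higher in members on 4 of 4 areas, by 1.18 on the log2 scale (SE 0.21, edgeR adjusted p = 0.041). mt-Nd2 (3914 to 4951), also of complex I, took 4.25 against 2.63 on WT, 11.7 against 4.63 on Early, 5.07 against 4.18 on Advanced 1 and 11.1 against 2.59 on Advanced 2. Its log2 difference was 1.20 (SE 0.22, edgeR adjusted p = 0.041). mt-Co2 (7013 to 7696), a subunit of cytochrome c oxidase, took 13.4 against 9.88 on WT, 35.6 against 12.9 on Early, 14.4 against 11.3 on Advanced 1 and 22.4 against 8.22 on Advanced 2. Its log2 difference was 1.05 (SE 0.19, edgeR adjusted p = 0.041). All 3 genes were thus higher in members by the most on Early and Advanced 2 and by less on WT and Advanced 1.

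Of 13 listed mitochondrial transcripts, 10 were tested, 3 rose and none fell, and the other 7 had positive log2 differences, among them mt-Atp6 at 0.94 and mt-Co3 at 0.95, each with an adjusted p of 0.0743 by edgeR and both chosen after their values were seen. The median of the list was 0.95. All 10 had an unadjusted p under 0.05, where the share over all genes was 6.36%, and 7 of 10 were higher on 4 of 4 areas, where the share over all genes was 5.56%. The 10 genes were counted in the same spots and areas, so they are not 10 separate observations. Summed over the list, members held 124, 304, 138 and 231 UMIs per 10000 on WT, Early, Advanced 1 and Advanced 2, and the rest 102, 128, 119 and 85.1. Spot by spot, the 7 Early members and 6 of 7 Advanced 2 members lay above the median of the rest of their area, against 36 of 51 on Advanced 1 and 4 of 7 on WT. In sums of spots, more cells of a type and more RNA per cell cannot be told apart. The 3 calls were lost in 12 of 22 alternatives, with differences of 0.78 to 1.29 on the log2 scale in 11 of these 12. In interior spots they were 0.75 for mt-Nd2, 0.04 for mt-Co2 and 0.0094 for mt-Nd4. None of the 3 was called with DESeq2, with total UMIs in place of TMM scaling, with spots thinned to 1000 UMIs, without the highest member of each area (an alternative chosen after seeing the data) or without the Early area. Without Advanced 2, 2 genes were called, and neither was one of the 3.

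The mitochondrial difference did not go with position in the same way on every area. The WT members, all at a tissue edge, held 124 mitochondrial UMIs per 10000, against 107 in edge spots of the rest. Members at a tissue edge held 360 mitochondrial UMIs per 10000 on Early and 239 on Advanced 2, against 142 and 93.0 in edge spots of the rest. Interior members held 133 against 102 on Early and 165 against 124 on Advanced 1, while the 4 edge members of Advanced 1 held 76.6 against 110. Advanced 2 had a single interior member with 10 mitochondrial UMIs, at 56.1 per 10000 against 75.6. In the fit on edge spots alone the median of the list was 0.81, and in the fit on interior spots alone, where that single spot stood for an area and WT had no member, it was 0.01, with 0 genes called in both. In the same interior fit the median of the fat list was 0.11 and that of the smooth muscle list 0.23. The part of position in the mitochondrial difference was not tested beyond these fits.

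**Figure D4:**
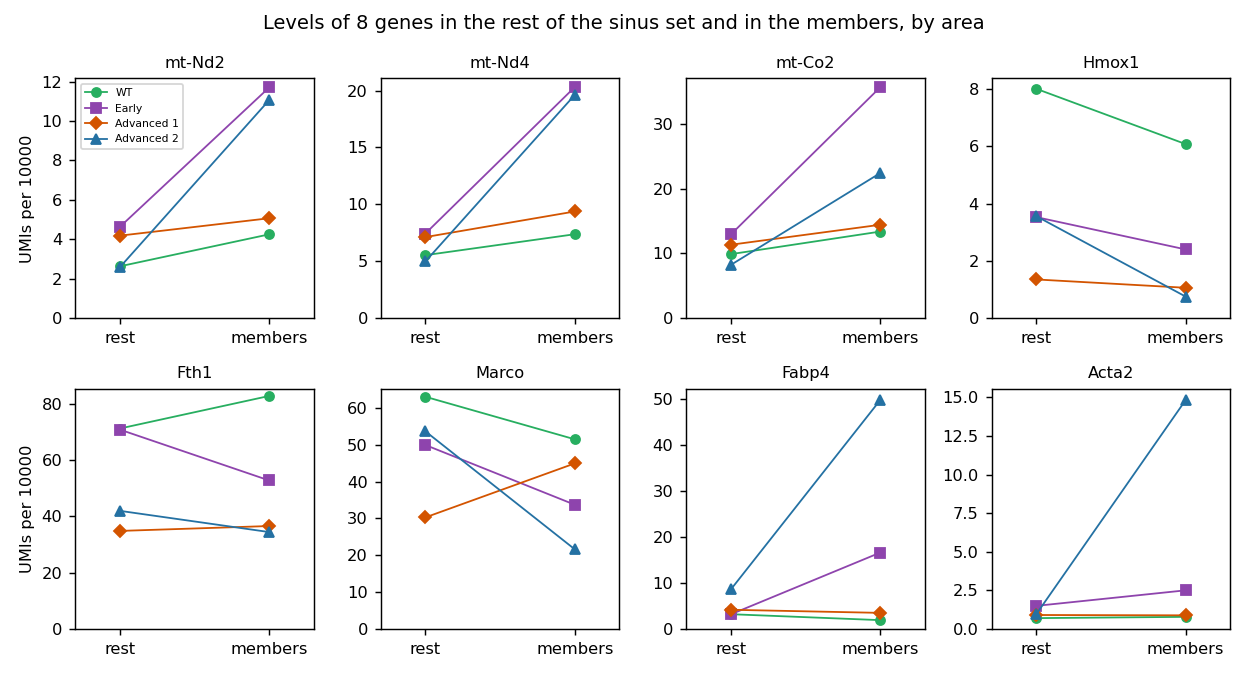
UMIs per 10000 in the rest of the sinus set and in the members for 8 genes, with a line for each capture area. The 3 mitochondrial genes are higher in the members on 4 of 4 areas, Fabp4 is higher on Early and Advanced 2 alone, Acta2, chosen after its values were seen, stands out on Advanced 2, and Hmox1 is lower on 4 of 4 areas without passing the test.

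No heme or iron gene passed the test. Of 34 listed genes 29 were tested, 0 rose and 0 fell by edgeR's quasi-likelihood test, and 0 had an unadjusted p under 0.05, where 6.36% of all genes did. The median log2 difference was 0.03, with 16 genes above 0 and 13 below. Hmox1, which degrades heme, took 6.07 of every 10000 UMIs in the WT members against 8.003 in the rest, 2.40 against 3.53 on Early, 1.06 against 1.35 on Advanced 1 and 0.754 against 3.56 on Advanced 2. It was lower in members on 4 of 4 areas, with a log2 difference of -0.46 (SE 0.23, edgeR adjusted p = 0.799). Of all genes tested 11.1% were lower on 4 of 4 areas, and the 0.754 of Hmox1 on Advanced 2 stands for 3 counts. DESeq2 called 0 genes of the list as well.

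The ferritin genes had small differences. Fth1, the heavy chain of ferritin, took 82.9 against 71.3 of every 10000 UMIs on WT, 52.8 against 70.9 on Early, 36.6 against 34.9 on Advanced 1 and 34.4 against 42.0 on Advanced 2, with a log2 difference of 0.03 (SE 0.16, edgeR adjusted p = 0.999). Ftl1, the light chain, was at 40.0 against 42.6, 27.3 against 32.9, 14.99 against 17.1 and 13.8 against 26.4, lower on 4 of 4 areas with a log2 difference of -0.21 (SE 0.17, edgeR adjusted p = 0.933). Among all genes tested, 11.1% were lower on 4 of 4 areas. A p that misses the threshold does not show that the levels were alike. Slc40a1, the iron exporter, had log2 difference -0.32 (SE 0.33), Spic, a transcription factor of iron-recycling macrophages, -0.36 (SE 0.26), and Blvrb, a biliverdin reductase, 0.26 (SE 0.22). Cd163, the receptor for hemoglobin bound to haptoglobin, had at most 2 UMIs in the members of any area. Vsig4, a receptor of resident phagocytes, had 0 UMIs in members and rest of all 4 areas, and was chosen after its values were seen.

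Red cell genes with enough counts for the test are mostly used by other cells as well, and none passed. Of 40 listed genes 10 were tested, 0 rose and 0 fell by edgeR, DESeq2 called 0, and none had an unadjusted p under 0.05. The median log2 difference was 0.04. Fech, which inserts iron into heme, had a log2 difference of -0.16 (SE 0.48), and Slc25a37, the mitochondrial iron importer, of -0.14 (SE 0.33). Cat, catalase, had the largest difference upwards at 0.50 (SE 0.31), and Gypc, a membrane glycoprotein, the largest downwards at -0.83 (SE 0.54). Without the filter on low counts, the median over 33 genes was 0.65, and a single gene of the list was called higher.

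Genes of sinus macrophages and of the uptake of dying cells did not pass the test over the 4 areas. Of 29 tested genes of other sinus macrophage genes, 0 were called, 4 were higher and 1 lower at an unadjusted p under 0.05, and the median was 0.08. Of 24 tested genes of erythrophagocytosis and clearance receptors, 0 were called and the median was -0.03. Leaving out 1 area changed this, with 2 sinus macrophage genes and 1 clearance receptor called higher without WT and 1 sinus macrophage gene without Advanced 1. Timd4, a receptor for phosphatidylserine on dying cells, had -0.18 (SE 0.18), Apoe 0.02 (SE 0.15) and the lysozyme Lyz2 0.13 (SE 0.16). The 23 tested genes of other lymphatic endothelial genes had a median of -0.05 with 0 called, and Clu among them had -0.03 (SE 0.17). DESeq2 called 0 of these genes. For the top 10% by sinus score 1 sinus macrophage gene was called higher and 1 lower, and with no filter on low counts 2 were called higher.

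**Figure D5:**
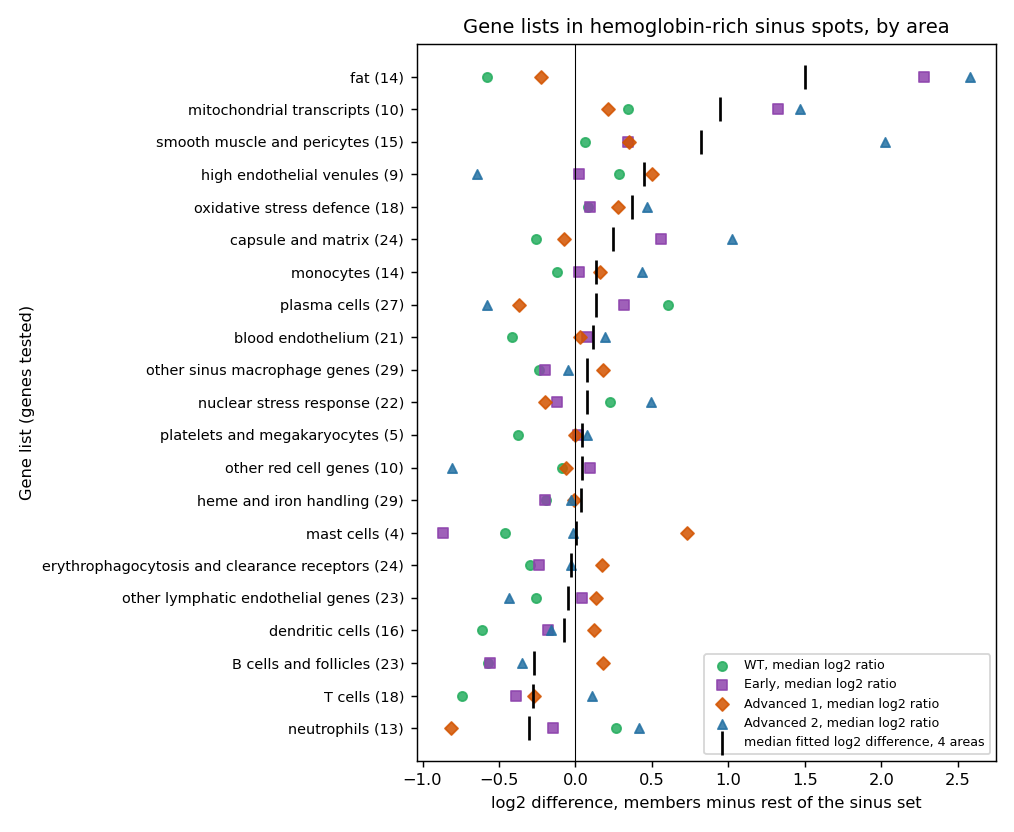
Median log2 difference between members and the rest of the sinus set (horizontal axis) for 21 gene lists with the number of genes tested in brackets. Coloured symbols are medians of log2 ratios within each capture area, with 0.5 UMI added to each sum and no TMM scaling, and black bars are medians of the fitted differences. The fat, mitochondrial and smooth muscle lists have the highest fitted medians, and the area medians of the fat list run from -0.58 on WT to 2.58 on Advanced 2.

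In sums over spots, fat genes were higher in members on Early and Advanced 2 and not on WT or Advanced 1, though none passed the test. Of 27 listed genes 14 were tested, 0 passed the adjusted p by edgeR or DESeq2, all 14 had an unadjusted p under 0.05, and the median log2 difference was 1.502. Fat genes were called higher in 8 of 22 alternatives, with 7 called without Advanced 1, 6 without WT, 5 at a hemoglobin threshold of 20 per 10000, 4 for spots of at least 2000 UMIs and 9 with no filter. Within areas the median log2 ratio was -0.58 on WT, 2.28 on Early, -0.22 on Advanced 1 and 2.58 on Advanced 2. Fabp4, a fatty acid carrier of fat cells and capillaries, took 1.91 against 3.20 of every 10000 UMIs on WT, 16.6 against 3.17 on Early, 3.49 against 4.16 on Advanced 1 and 49.8 against 8.59 on Advanced 2. Scd1, a fatty acid desaturase, took 0.608 against 1.29, 7.50 against 2.60, 3.49 against 2.77 and 28.9 against 4.29. The summed fat list stood at 104 per 10000 in the 4 edge members of Early and 163 in the 6 edge members of Advanced 2, against 12.0 and 39.5 in edge spots of the rest. Interior members of Early held 8.45 against 10.7. Single Early members ran from 3.15 to 285 per 10000 with a median of 23.3, against a median of 10.0 in the rest. The Early sum thus does not stand for a typical member. On Advanced 2 the spot median was 163 in members against 10.8 in the rest. Spot by spot, 4 of 7 Early members and 6 of 7 Advanced 2 members lay above the median of the rest of their area. On Advanced 1 these were 34 of 51 and on WT 3 of 7, so the split between areas was less clear by spot than in the sums. Whether fat cells beside the nodes are part of the mitochondrial difference was not tested, and the 2 lists were highest in the members of the same areas.

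Smooth muscle genes were highest in the members of Advanced 2. Of 21 listed genes 15 were tested, 0 were called by edgeR or DESeq2, 8 had an unadjusted p under 0.05, all of them higher, and the median was 0.82, with a median log2 ratio within the area of 0.06 on WT, 0.34 on Early, 0.35 on Advanced 1 and 2.02 on Advanced 2. Acta2, smooth muscle actin, took 14.8 against 0.959 of every 10000 UMIs on Advanced 2, where the other areas had 0.781 against 0.699 (WT), 2.50 against 1.49 (Early) and 0.880 against 0.901 (Advanced 1). Vwf, the von Willebrand factor of vessel endothelium, took 10.8 against 0.726 on Advanced 2 and no more than 0.303 in the members of the other areas. Smooth muscle genes were called higher in 5 of 21 alternatives, with 2 called without Advanced 1, 1 without WT, 1 for spots of at least 2000 UMIs, 3 for the top 10% by sinus score and 3 with no filter. Acta2 and Vwf were chosen after their values were seen. Spot by spot, the summed list ran from 0 to 109 per 10000 in the 7 Advanced 2 members, with a median of 24.9. The median of the rest of that area was 7.65, and 5 of the 7 members lay above it. Hba-a2 made up most of the hemoglobin in the sum of these 7 members. Whether the same spots carried both signals was not tested, nor was the part of vessel walls in either. Without Advanced 2 the median of the list was 0.42. The 21 tested blood endothelium genes had a median of 0.11, the 9 of high endothelial venules 0.45 and the 24 of capsule and matrix 0.24, with 0 called in each. Leaving out 1 area gave 1 blood endothelium call without Advanced 1 and 1 capsule and matrix call without WT.

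No gene of other blood cells passed the test. Of 13 tested neutrophil genes 0 were called and the median was -0.31, and S100a8, a subunit of calprotectin, was lower in members on 4 of 4 areas, at 1.22 against 1.99, 1.1 against 1.83, 3.31 against 6.27 and 0.754 against 1.99 per 10000 on WT, Early, Advanced 1 and Advanced 2 (log2 difference -0.76, SE 0.22, edgeR adjusted p = 0.334). Among all genes tested, 11.1% were lower on 4 of 4 areas, and the 0.754 of S100a8 on Advanced 2 stands for 3 counts. S100a9, the partner of S100a8, was higher in members on 2 areas and lower on 2, with -0.14 (SE 0.24). Of 5 tested platelet genes 0 were called, with a median of 0.04, and Itga2b, a platelet integrin, had -0.14 (SE 0.22). The 14 tested monocyte genes had a median of 0.14 and the 4 of mast cells 0.00. T cell, B cell and dendritic cell genes had medians of -0.28, -0.27 and -0.07 over 18, 23 and 16 tested genes, with 0 called by edgeR or DESeq2.

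Stress and plasma cell genes were mixed. Of 18 tested genes of oxidative stress defence 0 were called, 4 were higher at an unadjusted p under 0.05, and the median was 0.37. Gpx1, a glutathione peroxidase, was higher on 4 of 4 areas by 0.43 (SE 0.16, edgeR adjusted p = 0.637), as was Prdx1, a peroxiredoxin, by 0.40 (SE 0.17, edgeR adjusted p = 0.698). The 22 nuclear stress genes had a median of 0.08 and the 27 plasma cell genes 0.13, with 0 called. Without Advanced 1, 1 nuclear stress gene was called higher, and without Advanced 2, 2 plasma cell genes were. The kappa constant gene Igkc had 0.46 (SE 0.26) and Ighg2b 0.00 (SE 0.25).

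The same split of spots outside the sinus set gave more calls. There, 101 of 9530 genes passed an adjusted p of 0.05 by edgeR (1.06%), 87 higher (0.913%) and 14 lower (0.147%) in hemoglobin-rich spots. At an unadjusted p under 0.05 there were 971 genes (10.2%), 5.59% of genes higher and 4.6% lower. Of the 87 higher genes, 80 were tested in the sinus set, and 78 of them had a positive difference there, with a median of 0.72. Of the 14 lower genes, 13 were tested there, and 11 had a negative difference, with a median of -0.44. Over all 6812 genes tested in the sinus set, 3288 had a positive difference and 3524 a negative one. The 3 called mitochondrial genes were called outside as well, which is 3 of 3 genes of the sinus set and 3 of 87 outside. Of 11 tested mitochondrial transcripts outside, 10 rose, with a median of 0.96, and of 20 fat genes 17 rose, with a median of 1.97. Hp, haptoglobin, which binds free hemoglobin, rose outside by 0.94 (SE 0.18, edgeR adjusted p = 0.00247), as did Trf, transferrin, by 0.75 (SE 0.16, edgeR adjusted p = 0.00614), and their differences in the sinus set were 0.17 (SE 0.32) and 0.17 (SE 0.19). Hmox1 had 0.06 (SE 0.28) outside. For Hp and Trf the test of the difference between the contrasts did not pass (edgeR adjusted p = 1.00 for both), so they are not shown to differ between the sets. That test, sinus set minus outside, called 5 of 10490 genes (0.0477%), 4 of them higher (0.0381%) and Ccl8 lower (0.00953%), with 386 at an unadjusted p under 0.05 (3.68%; 1.18% higher and 2.5% lower). None of the mitochondrial, heme and iron or red cell genes on the lists was among them.

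A test of whether the contrast differed between Advanced and Early arthritis called 0 of 6812 genes by edgeR, with 160 at an unadjusted p under 0.05 (2.35%; 1.41% higher and 0.94% lower in Advanced) and 1 residual degree of freedom. Early had a single area, and the 2 Advanced areas went opposite ways for several genes described above, Marco and Fabp4 among them. The contrast was therefore not shown to differ with the stage of arthritis.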

How the data were processed

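Tissue sections of PLNs were profiled on 1 Visium slide. Per the labels and the study's methods, Space Ranger 1.1.0 and the GRCm38 (mm10) build gave the UMI counts, which the authors deposited for spots under tissue without normalization. The members and gene lists were chosen with earlier results of these data known. Spots of at least 1000 UMIs were classed by the rule, UMIs were summed per area and class (8 sums, 16 with the spots outside the sinus set), and genes with at least 100 UMIs over the sums were tested with edgeR 4.0.16 (R 4.3.3), using TMM, a quasi-likelihood test with area as block and Benjamini-Hochberg adjustment. Library sizes kept the 13 rule genes. SE is the log2 difference divided by the square root of F. Alternatives included DESeq2 1.42.0, other thresholds, depths and filters, and 1 chosen after seeing the data (without the highest member of each area). The fit was tested on simulated data. Named genes were the rule genes, the red cell and iron genes, called genes (10 in each direction), up to 4 called genes or the 2 most abundant of each other list, and genes past an interaction. Other named genes are marked in the text. Image scale factors were not used, and some marker genes are not reported here.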

Additional observations from a re-analysis of the deposited data

Results flagged for a closer look

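For 5 of 10490 genes (0.0477%) the difference between hemoglobin-rich and other spots was not the same in the sinus set and outside it, by edgeR's test of the interaction with an adjusted p under 0.05. Iglv1, an immunoglobulin light chain variable gene, had an interaction of 3.41 on the log2 scale (SE 0.64, adjusted p = 0.0025), with 99 of its UMIs in the WT members and 3, 7 and 1 in those of Early, Advanced 1 and Advanced 2, and an interaction of 1.58 without WT. Slpi, an antiprotease, had 1.26 (SE 0.26, adjusted p = 0.0132). It took 216 of every 10000 UMIs in the WT members against 70.7 in the rest, 2.90 against 1.47 on Early, 6.46 against 4.55 on Advanced 1 and 1.01 against 2.12 on Advanced 2. A single WT member held 53647 of the 115228 UMIs of the WT members, so the summed WT levels rest heavily on few spots. Lyz1, a lysozyme close in sequence to Lyz2 so that reads could be split between them, had 1.23 (SE 0.27, adjusted p = 0.0257). Ighg1, the IgG1 constant gene and a close paralog of the other IgG genes, had 1.19 (SE 0.27, adjusted p = 0.0292), with 270 against 74.8 per 10000 on WT and 13.3 against 26.8 on Advanced 2. Ccl8, a chemokine of sinus macrophages, had -0.98 (SE 0.22, adjusted p = 0.0292), where it rose outside the sinus set by 0.60 (adjusted p = 0.0152) and had -0.29 in members (SE 0.17, adjusted p = 0.865), which did not pass. Without the WT area Lyz1 alone of the 5 genes passed, at 1.57, while Slpi had 0.80, Ighg1 1.18 and Ccl8 -1.04. Lyz1 did not pass without Early, Advanced 1 or Advanced 2 (adjusted p = 0.755, 0.906 and 0.0769), and Ccl8 lost its call whichever area was left out.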

How the results depend on the processing

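The 3 calls of the main comparison depended on the settings. Calls numbered 7 at a hemoglobin threshold of 5 per 10000, 12 at 20, 8 with at least 5 hemoglobin UMIs in members, 5 against spots under 2 per 10000, 16 for spots of at least 2000 UMIs, 24 for the top 10% by sinus score and 39 with no filter on low counts. They numbered 0 for spots of at least 500 UMIs, for thinned spots, for the top 25% of all spots, for edge or interior spots alone, without the highest member of each area, with total UMIs without TMM, with filterByExpr, with no replicate block and with DESeq2. Leaving out 1 area gave 0 (without Early) to 26 calls (without Advanced 1), and 16 without WT. DESeq2's size factors kept the 3 genes. None of the 3 genes changed direction in any alternative, and without Advanced 2 there were 2 other calls. Outside the sinus set there were 224 calls at 5 per 10000, 43 at 20, and 28 to 103 without 1 area, where WT, Early and Advanced 2 each lowered the count by over 1.5 times (52, 28 and 33). The interaction had 3 calls at 5 per 10000 and 1 to 5 without 1 area, with 1 without WT and 2 without Advanced 1. The test of Advanced against Early had 6 calls with no filter.

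The median of the mitochondrial list was 0.0094 in interior spots and 0.76 to 1.25 without 1 area, that of fat 0.73 to 1.90 and that of smooth muscle genes 0.42 to 0.95. In interior spots fat had 0.11 and smooth muscle 0.23, and smooth muscle had 0.27 at 20 per 10000. The red cell list had 0.65 with no filter and 0.03 to 0.17 without 1 area. The heme and iron list had -0.090 at 20 per 10000, -0.27 after thinning, -0.11 for the top 10%, -0.12 at edges, -0.14 in the interior, -0.10 without TMM and -0.17 to -0.010 without 1 area. Total UMIs without TMM moved the median of all genes to -0.14. Members numbered 2 (WT), 28 (Advanced 1) and 3 (Advanced 2) at 20 per 10000, 77 (Advanced 1) and 20 (Advanced 2) at 5, and 26 (Early), 79 (Advanced 1) and 16 (Advanced 2) after thinning. At 1000 UMIs a single hemoglobin UMI meets the threshold and the sinus set is ranked anew. Of the 51 Advanced 1 members, 34 were members again. The gene fit on thinned spots kept the original members and tested 727 genes. With edges defined by fewer than 5 neighbours, the mean difference was 20.6 points. The causes were not tested. With 7 members on 3 of the areas and 1 area for WT and for Early, small differences could not be detected.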
